A study of Mus musculus with 5 samples.

Results

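The 9 genes Cr2, Cd38, Cd22, Cd72, Fcer2a, Cd40, Ms4a1, Cd37 and Cd24a encode proteins on the B cell surface, and binding of the transcription factors IRF4 and IRF8 around them was mapped by chromatin immunoprecipitation and sequencing (ChIP-seq). The genes were named beforehand, with earlier results of these data known, and an interval was assigned to a gene when its centre lay in the gene body or within 50 kb of it. Of the 5590 intervals in the 5 deposited lists, 13 met this rule: 1 of IRF4 at 72 h, 3 of IRF4 at 48 h, 2 of IRF8 at 72 h, 0 of IRF8 at 48 h and 7 of IRF8 in germinal centre (GC) B cells. They lay at 7 of the 9 genes. Fcer2a and Cd40 had no interval in any list.

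All cells came from wild type C57BL/6 mice. For 4 libraries, naive spleen B cells were cultured with 10 μg/ml lipopolysaccharide (LPS), a bacterial product that activates B cells, and IRF4 (antibody M-17) or IRF8 (antibody C-19) was precipitated after 72 h or 48 h. The GC library used the same IRF8 antibody on B cells sorted from mice 13 days after immunisation with NP-KLH. With 1 library in each group, differences between groups could not be checked against replicates. The files hold no expression values, so the labelled cell types could not be checked against marker genes. The LPS libraries held between 3065426 and 4375858 tags, with 0.18% to 0.82% of them in peaks, lowest in IRF8 at 48 h, whose list of 234 peaks was also the shortest. The GC list of 1826 intervals gives positions alone, so its depth is unknown, and cell type and peak caller cannot be told apart wherever it is set beside an LPS list.

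These proteins tune the B cell response to antigen and to T cell help. CR2 (CD21) is a receptor for complement-coated antigen, CD22 and CD72 are inhibitory receptors, and CD40 receives the T cell signal that germinal centres need. CD38 is an ectoenzyme that uses NAD and is carried at low levels by mouse GC B cells, CD23 (Fcer2a) is the low-affinity IgE receptor of naive B cells, CD20 (Ms4a1) and the tetraspanin CD37 span the membrane several times, and CD24 (Cd24a) is an anchored glycoprotein used to stage B cells. IRF4 and IRF8 bind DNA weakly alone. Their partners are PU.1 or SPIB, of the ETS family, at ETS-IRF composite elements (EICE), BATF and JUN proteins at AP-1-IRF composite elements (AICE), and another IRF at the interferon-stimulated response element (ISRE).

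Sequences are shown for the intervals that held one of these elements, for the only place found in more than 1 list (the Cd38 intron), and for the peak with the most tags (Cr2). All are the plus strand of mm9, 5′ to 3′. Capitals mark an element, read on either strand: an EICE (GGAA, any 2 bases, GAAA), the ISRE core (GAAA, any 2 bases, GAAA) or an AP-1 site (TGAGTCA or TGACTCA).
Cd24a upstream, IRF4 48 h (chr10:43277511-43277711): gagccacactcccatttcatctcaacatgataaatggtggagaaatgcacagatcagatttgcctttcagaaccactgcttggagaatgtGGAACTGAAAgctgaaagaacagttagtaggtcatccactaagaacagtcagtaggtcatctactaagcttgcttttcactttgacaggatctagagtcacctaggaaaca
Cd37 promoter, IRF8 GC (chr7:52494674-52494754): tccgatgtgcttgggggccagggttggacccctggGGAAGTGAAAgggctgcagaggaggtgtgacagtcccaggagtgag
Ms4a1 upstream, IRF8 GC (chr19:11346207-11346287): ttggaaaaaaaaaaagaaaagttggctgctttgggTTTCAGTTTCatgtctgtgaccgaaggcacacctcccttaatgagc
Cd72 upstream, IRF8 GC (chr4:43491866-43491946): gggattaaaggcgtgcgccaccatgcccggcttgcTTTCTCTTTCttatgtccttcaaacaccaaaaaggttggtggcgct
Cd22 downstream, IRF8 GC (chr7:31627755-31627835): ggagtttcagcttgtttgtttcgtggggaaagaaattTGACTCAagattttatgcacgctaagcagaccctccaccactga
Cd38 intron, IRF4 72 h, IRF4 48 h and IRF8 GC (chr5:44276486-44276686): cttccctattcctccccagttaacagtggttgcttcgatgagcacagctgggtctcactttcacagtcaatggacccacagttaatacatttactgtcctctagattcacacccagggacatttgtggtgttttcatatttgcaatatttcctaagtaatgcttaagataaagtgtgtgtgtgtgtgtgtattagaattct
Cr2 upstream, IRF4 48 h (chr1:197026142-197026342): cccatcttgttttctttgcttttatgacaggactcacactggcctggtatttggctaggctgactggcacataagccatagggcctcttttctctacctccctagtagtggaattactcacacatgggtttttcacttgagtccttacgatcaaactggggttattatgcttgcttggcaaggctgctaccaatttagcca
The EICE reads GGAACTGAAA upstream of Cd24a and GGAAGTGAAA at Cd37, both on the plus strand. The ISRE core reads GAAACTGAAA at Ms4a1 and GAAAGAGAAA at Cd72, both on the minus strand. The Cd38 and Cr2 stretches held none of the elements.

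**Figure D1:**
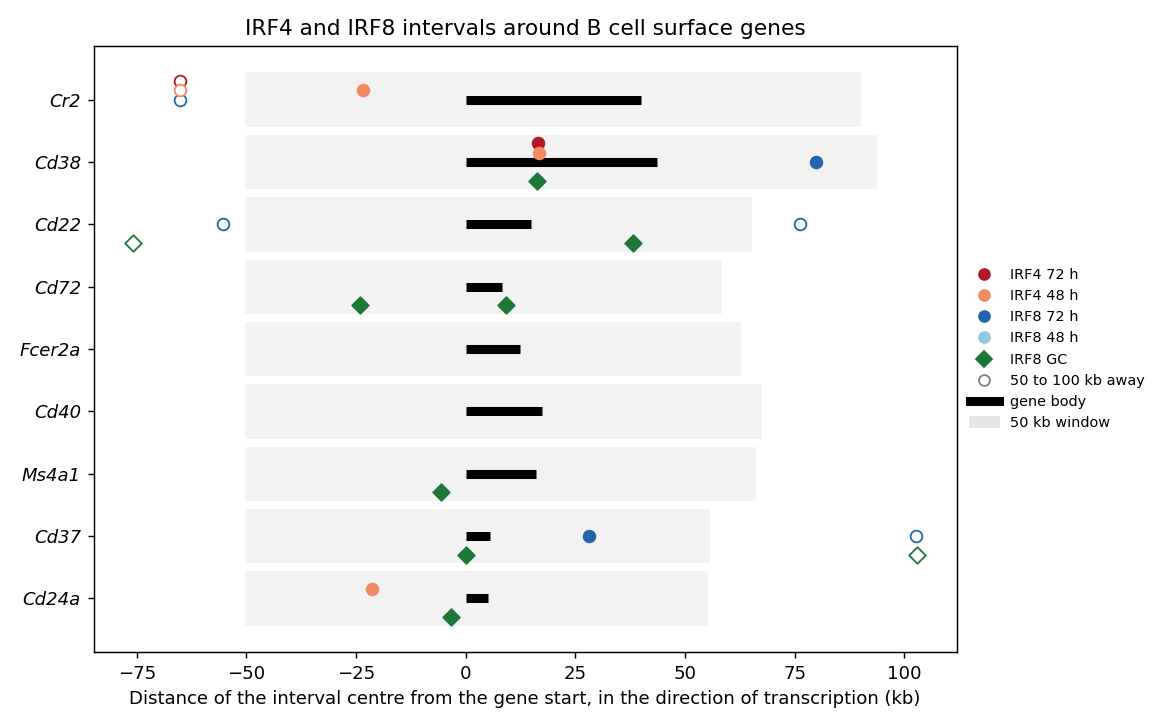
Position of every interval near the 9 genes. The x axis is the distance in kb of the interval centre from the gene start, in the direction of transcription, with 1 row per gene, a black bar for the gene body and a grey band for the gene and 50 kb on either side. Filled symbols are the 13 assigned intervals, open symbols those between 50 and 100 kb away, diamonds germinal centre (GC) intervals and circles LPS peaks. The intron of Cd38 is the only place with symbols of more than 1 list inside the band, and Fcer2a and Cd40 have none.

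More of the 9 genes had an interval in the GC list than in any LPS list. An IRF4 peak lay near 1 of 9 genes at 72 h (Cd38) and near 3 of 9 at 48 h (Cr2, Cd38 and Cd24a). Over all 22380 protein-coding genes of the annotation the shares were 7.61% at 72 h and 11.5% at 48 h. An IRF8 peak lay near 2 of 9 at 72 h (Cd38 and Cd37), with 8.81% over all coding genes, and near 0 of 9 at 48 h, with 1.99% over all coding genes. In GC B cells 6 of 9 genes had an IRF8 interval (Cd38, Cd22, Cd72, Ms4a1, Cd37 and Cd24a), 66.7% of the 9 genes and 15.6% of all coding genes. At least 1 LPS list had a peak near 4 of 9 genes, against 19.2% of all coding genes, and any list near 7 of 9, against 28.1%. Of 9 genes 1 is 11.1%, and no difference from these backgrounds was tested. The GC intervals were also wider, with a median of 1144.5 bp against 500 bp, and their list was the longest; the part of either in the GC count was not tested. The median gene length was 14.9 kb for the 9 genes and 15.4 kb for all coding genes, and both had a median of 3 other coding genes in the window.

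Cd38, Cd37 and Cd24a had both GC and LPS intervals. Cd22, Cd72 and Ms4a1 had GC intervals alone, and Cr2 an LPS peak alone. Of all coding genes 6.68% had both, 8.90% a GC interval alone and 12.6% an LPS peak alone. The difference from these shares was not tested. A gene without a listed peak is not a gene without bound factor. The lowest peaks listed held 18.6 and 23.6 normalised tags for IRF4 at 72 h and 48 h, and 22.8 and 20.6 for IRF8 at 72 h and 48 h, and weaker binding would not appear. Normalised tags are tags per 10000000 tags of the library.

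**Figure D2:**
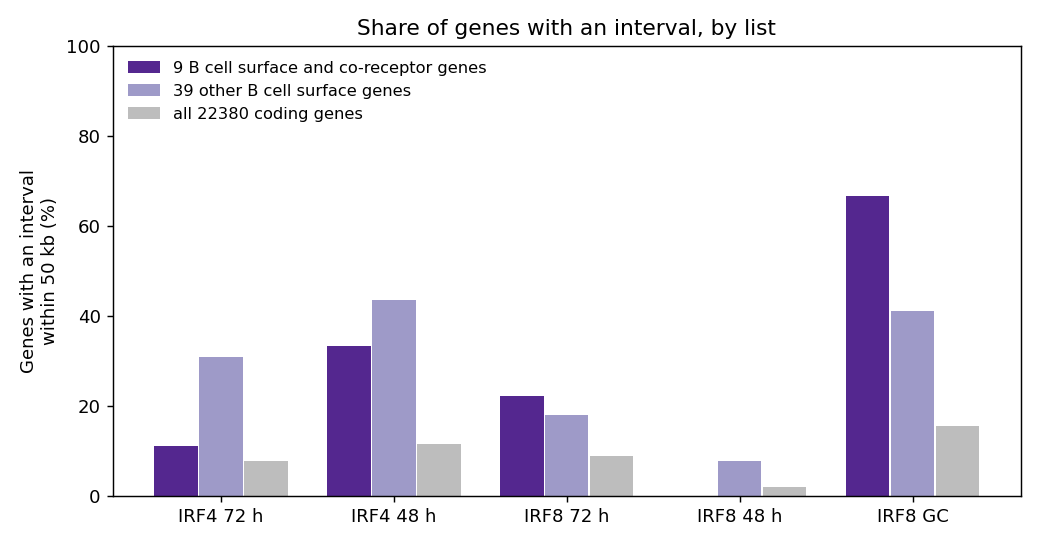
Percentage of genes with an interval in the gene body or within 50 kb, for each list (GC, germinal centre). Bars are the 9 B cell surface and co-receptor genes, 39 other B cell surface genes and all 22380 protein-coding genes. The GC list covers 66.7% of the 9 genes, and IRF8 at 48 h covers 0.

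Cd38 was the gene with the most intervals, 4 in all, and lies on chr5:44260048-44303614 on the plus strand (ENSMUSG00000029084.4). Its intron held an IRF4 peak at 72 h (chr5:44276262-44276762), an IRF4 peak at 48 h (chr5:44276410-44276910) and a GC IRF8 interval (chr5:44275801-44276800), all centred 16.25 to 16.61 kb downstream of the gene start. The 3 intervals had 353 bp in common (chr5:44276410-44276762). The IRF4 peak carried 31.9 normalised tags at 72 h (12 tags, exact Poisson 95% interval 16.5 to 55.7) and 38.3 at 48 h (13 tags, 20.4 to 65.4). These intervals cover counting error only, since spread between libraries cannot be measured with 1 library per group. Repeat tags of 1 molecule were not marked by identifiers, so the intervals could be too narrow. The 2 Poisson intervals overlapped, and the peak centres lay 148 bp apart. The ratio of 72 h over 48 h was 0.83 (95% interval 0.35 to 1.98, log2 -0.26) and did not pass an exact binomial test of these 2 libraries (two-sided, p = 0.69, adjusted p = 0.94 over the 536 places listed at both times). Of those 536 places 14 passed, which is 2.61%, and all 14 were lower at 72 h. The median log2 ratio over the 536 was -0.39. With that median set to 0, 10 places passed the exact binomial test, 6 higher and 4 lower at 72 h. The log2 value at Cd38 was then 0.12 and did not pass (exact binomial test, adjusted p = 1), so the direction at Cd38 and among the places depends on the scaling. Neither IRF8 LPS list held a peak there, and the common stretch held none of the 6 elements searched. A separate IRF8 peak at 72 h (chr5:44339599-44340099) lay beyond the far end of Cd38, 36.2 kb from the gene body and 4.13 kb from the start site of the predicted gene Gm5292. It carried 32.6 normalised tags (10 tags, 15.6 to 60.0), equal to the median of its list. Of the 24-base words around its centre 8.43% occurred more than once in the genome.

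Cr2 (chr1:196963005-197002909, minus strand, ENSMUSG00000026616.8) had 1 peak, of IRF4 at 48 h, in intergenic sequence 23.3 kb upstream of its start (chr1:197025992-197026492). It carried 41.2 normalised tags (14 tags, 22.5 to 69.1), the most among the 6 LPS peaks near these genes and more than 58.6% of its own list. The window held no element. Further upstream, 65.0 kb from the gene and so outside the rule, IRF4 at 72 h, IRF4 at 48 h and IRF8 at 72 h all had a peak at 1 place, with 37.2, 38.3 and 39.1 normalised tags in that order and none of the 6 elements. Cr2 had the nearest coding start site there too. The nearest GC interval to Cr2 was 3047.1 kb away.

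Cd24a (chr10:43298975-43304068, plus strand, ENSMUSG00000047139.8) had an IRF4 peak at 48 h and a GC IRF8 interval at different places. The IRF4 peak lay 21.4 kb upstream of the gene (chr10:43277361-43277861), with an EICE centred 6 bp from its centre, the sequence GGAACTGAAA shown above. It was the only interval of the 13 with an element within 100 bp of its centre, where 14.6% of all placed IRF4 48 h peaks held an EICE. The peak carried 29.4 normalised tags (10 tags, 14.1 to 54.1), more than 7.76% of its list. The nearest coding start site was that of 1700021F05Rik at 16.81 kb. The GC interval (chr10:43295088-43295943) lay 3.46 kb upstream of the Cd24a start and held no element over its 856 bp. Around its centre 21.9% of the 24-base words occurred more than once in the genome.

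**Figure D3:**
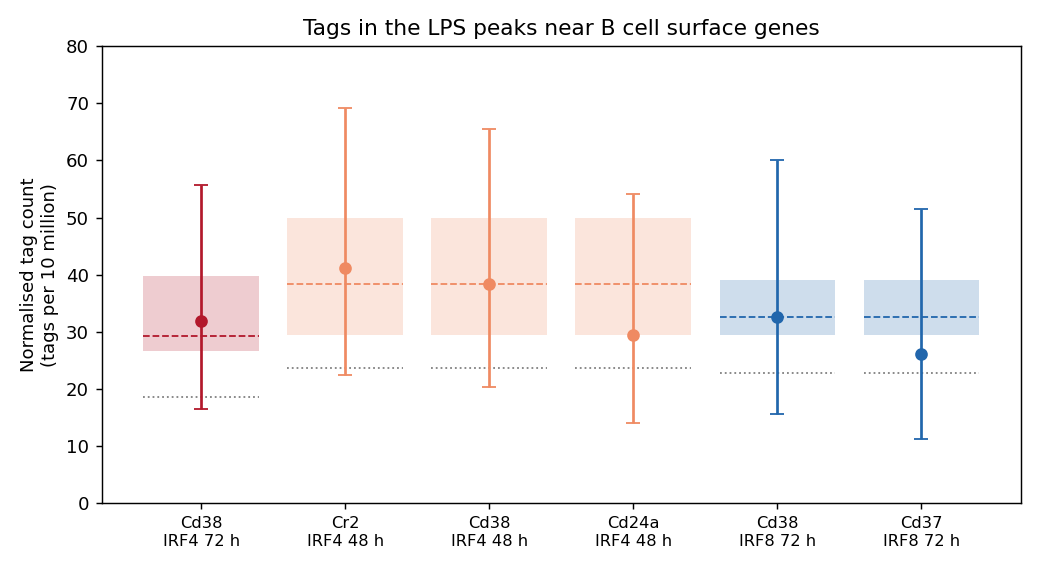
Normalised tag count (tags per 10000000) of the 6 LPS peaks near B cell surface genes, with exact Poisson 95% intervals of the tag number as bars. The shaded band spans the quartiles of all peaks of the same list, the dashed line is the median and the dotted line the lowest listed peak. All 6 values lie between 26.1 and 41.2 with overlapping bars, and none exceeds the upper quartile of its list.

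The 6 LPS peaks rested on 8 to 14 tags each. None lay above the upper quartile of its list (39.8 and 50 normalised tags for IRF4 at 72 h and 48 h, 39.1 for IRF8 at 72 h). Their intervals overlap one another, so no order among the genes is drawn from them.

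Cd37 (chr7:52489002-52494485, minus strand, ENSMUSG00000030798.7) was the only gene of the 9 with an interval at its own promoter. The GC IRF8 interval (chr7:52493830-52495166) was centred 13 bp upstream of the gene start. It held an EICE 224 bp upstream of the start (GGAAGTGAAA, chr7:52494709-52494718) and 3 PU.1-type sites (GAGGAAGT), 1 of them 303 bp upstream and the others 258 and 431 bp downstream. Over whole intervals an EICE lay in 23.0% and a PU.1-type site in 16.2% of all GC intervals. The EICE was 215 bp from the middle of the interval, outside the 100 bp window, and GC intervals have no summit. An IRF8 peak at 72 h (chr7:52466233-52466733) lay 22.5 kb beyond the far end of Cd37, 770 bp from a start site of Dkkl1. It carried 26.1 normalised tags (8 tags, 11.3 to 51.4), more than 1.89% of its list. Neither LPS list of IRF4 had a peak within 50 kb of Cd37.

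Ms4a1 (chr19:11324654-11340669, minus strand, ENSMUSG00000024673.7) had a single GC interval (chr19:11345846-11346913), centred 5.71 kb upstream of its start, and Ms4a1 had the nearest coding start site. It held an ISRE core 133 bp from the centre (GAAACTGAAA, chr19:11346242-11346251, minus strand). An ISRE core lay in 37.4% of all GC intervals. The nearest LPS peak to Ms4a1 was 270.1 kb away, of IRF4 at 48 h.

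Cd72 (chr4:43459334-43467500, minus strand, ENSMUSG00000028459.5) had 2 GC intervals, and for neither was it the gene with the nearest start. The first (chr4:43457856-43458592) lay 1.11 kb beyond the far end of Cd72 and 402 bp from a start site of Tesk1, which encodes a protein kinase, and held no element. The second (chr4:43490832-43492325), 24.1 kb upstream of Cd72, lay 4.52 kb from the start of Sit1, which encodes a signalling adaptor of lymphocytes, and held 2 ISRE cores, 151 and 327 bp from its centre. The nearest LPS peak to Cd72 was 379.2 kb away, of IRF8 at 72 h.

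Cd22 (chr7:31650421-31665361, minus strand, ENSMUSG00000030577.6) had 1 GC interval (chr7:31626653-31627801), 23.2 kb beyond its far end and 14.0 kb from the start of Ffar3, a receptor for short-chain fatty acids. An AP-1 site lay 568 bp from its centre, at the edge of the interval, where 23.8% of all GC intervals held an AP-1 site somewhere. Of the 24-base words within 100 bp of its centre, 32.0% occurred more than once in the genome, the most of the 13 intervals, though the median word of each interval occurred 1 time. IRF8 peaks at 72 h lay just outside the window, at 55.3 kb with 26.1 normalised tags and at 61.2 kb with 29.4. The farthest interval inside was the one at 36.2 kb from Cd38, with 32.6.

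Fcer2a (chr8:3681737-3694174, minus strand, ENSMUSG00000005540.8) and Cd40 (chr2:164881127-164898448, plus strand, ENSMUSG00000017652.8) had no interval. For Fcer2a the nearest interval of any list was 476.5 kb away, of IRF4 at 48 h, and the nearest GC interval 983.9 kb. For Cd40 the nearest was a GC interval at 175.5 kb, and IRF4 peaks at both 72 h and 48 h lay at 187.0 kb.

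Across the 13 intervals, 7 were intergenic, 3 intronic and 3 within 1000 bp of a coding start site. The surface gene had the nearest start site at 7 of them and another gene at 6. Within 10 kb of the gene body lay 5 of the 7 GC intervals and 2 of the 6 LPS peaks, both of them in the Cd38 intron. The difference was not tested, and the same shares over all intervals and coding genes are not given here. Of the 7 GC intervals 2 were promoter intervals (28.6%), against 26.4% of all GC intervals. Promoter shares of all placed LPS peaks were 14.9% (IRF4 72 h), 9.21% (IRF4 48 h), 9.83% (IRF8 72 h) and 10.2% (IRF8 48 h). Sharing between lists was confined to the Cd38 intron: 1 of 1 IRF4 peak at 72 h, 1 of 3 IRF4 peaks at 48 h, 0 of 2 IRF8 peaks at 72 h and 1 of 7 GC intervals overlapped another list. Over the full lists 71.7%, 43.9%, 44.0% and 19.8% did, in the same order. No place near the 9 genes was listed for IRF8 at both times, or for IRF4 and IRF8 at the same time of LPS culture, so no tag ratio could be taken for those pairs.

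Within 100 bp of the centre 1 of 13 intervals held any of the 6 elements, the EICE of Cd24a. Over the whole interval, which contains that window, 5 of 13 did: the EICE of Cd24a, the EICE and PU.1-type sites of Cd37, the ISRE cores of Ms4a1 and of 1 Cd72 interval, and the AP-1 site of Cd22. Shares of all placed intervals are given for single elements only. Within 100 bp the EICE share was 25.6% (IRF4 72 h), 14.6% (IRF4 48 h), 22.1% (IRF8 72 h) and 7.34% (GC). In the same order the ISRE core share was 7.22%, 4.54%, 12.1% and 13.5%, and the AP-1 share 18.5%, 28.7%, 8.02% and 5.8%. GC intervals have no summit, so their window lay around the middle, and GC and LPS shares within 100 bp are not directly comparable. Over whole GC intervals the shares were 23.0% for the EICE, 37.4% for the ISRE core, 23.8% for AP-1 and 16.2% for PU.1-type sites. Over whole peaks of IRF4 72 h, IRF4 48 h and IRF8 72 h the EICE share was 29.98%, 18.99% and 24.86%. In that order the ISRE core share was 11.88%, 10.42% and 16.35%, and the AP-1 share 23.98%, 35.42% and 11.85%. PU.1-type sites lay in 11.31%, 10.17% and 9.08%. GC intervals were wider, so these shares cover unequal lengths. AICE1 and AICE2 matched none of the 13, and AICE1 lay within 100 bp of the centre in 2.03% and 3.64% of all placed IRF4 peaks at 72 h and 48 h. With the last base of the EICE left free, 4 intervals matched within 100 bp: Cd24a again, the Cd22 GC interval (GGAACTGAAC, 2 bp from the centre), and the IRF8 72 h peaks of Cd37 (GGAAGAGAAG, 25 bp) and Cd38 (GGAACAGAAT, 44 bp). Over all placed intervals this relaxed form lay in 28.7% for IRF4 at 72 h, 18.3% for IRF4 at 48 h, 25.1% for IRF8 at 72 h and 10.9% for the GC list. The distance at Cd22 is from the middle of a GC interval, not from a summit. Of the 24-base words within 100 bp of that middle, 32.0% occurred more than once in the genome. No match says only that these letters are not in the window.

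A list of 40 other B cell surface genes was drawn up for comparison, and 39 were in the annotation by that name. Of these, 12 had an IRF4 peak at 72 h, 17 an IRF4 peak at 48 h, 7 an IRF8 peak at 72 h, 3 an IRF8 peak at 48 h and 16 a GC interval. No interval lay near 13 of 39. An interval of any list lay near 66.7% of the 39, against 28.1% of all coding genes. IRF4 peaks lay near 11.1% of the 9 genes at 72 h, against 30.8% of these 39, and near 33.3% of the 9 genes at 48 h, against 43.6% of the 39. GC intervals lay near 66.7% of the 9 genes, against 41.0% of the 39. No test was made between the lists, since genes are not replicates of a condition.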

How the data were processed

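Members and lists were chosen with earlier results of these data known. Per the file headers, the authors called the 4 LPS lists with HOMER findPeaks (peaks of 500 bp, false discovery rate 0.001, at least 4 fold over the surrounding 10000 bp), and no control library was named. In the IRF8 72 h header the tag directory carries a mark for replicate 2, and the sources used here do not say if libraries were merged. GC intervals were called with MACS, per the labels' design text, on cells processed by a company. The build was mm9 per the labels. BWA and Bowtie2 are listed, with no role, per the submitters' processing notes.

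The deposited signal is a normalised tag count: the authors set each library to 10000000 tags. The authors' deposited score (tags in the peak), fraction (focus ratio), fold ratios over local sequence and p-value of each peak were not tested. The signal returned whole tag numbers (within 0.05) for 100% of peaks, and these gave exact Poisson intervals and, with library totals, exact binomial tests adjusted by Benjamini-Hochberg over all places listed in both lists. The test was tried on simulated data.

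Genes were protein-coding genes of GENCODE M1 on NCBIM37 (mm9), and every placed interval lay inside its chromosomes. Start sites were those of all their transcripts, and the gene start the outermost. Places were shared at an overlap of at least 1 bp. A promoter interval had its centre within 1000 bp of a start site. Both strands were read for 6 elements up to 100 bp from each centre, the EICE, ISRE core, AP-1 site, AICE1, AICE2 and a PU.1-type site. AICE forms contain the AP-1 site, and EICE and PU.1-type sites can overlap. All 9 genes and all their intervals are named. Other genes are named where theirs is the nearest coding start site, or where an other surface gene had an interval in 3 or more lists. Words of 24 bases were counted over the genome. Python 3.11.15, numpy 2.4.6, scipy 1.17.1 and pysam 0.24.0 were used. The replicate is 1 library per group, and p-values compare libraries, not conditions.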

Additional observations from a re-analysis of the deposited data

How the results depend on the processing

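Counts near the 9 genes depend on the window. At 10 kb IRF4 at 48 h had 1 gene with 1 peak, and IRF8 at 72 h 0 genes and 0 peaks. At 100 kb the IRF4 72 h list reached 2 genes with 2 peaks and the IRF8 72 h list 4 genes with 6 peaks. With LPS peaks of at least 30 normalised tags, IRF8 at 72 h had 1 gene and 1 peak. Where the surface gene had to have the nearest start site, IRF8 at 72 h had 0 genes and 0 peaks. Under that setting IRF4 at 48 h had 2 genes and 2 peaks, and the GC list 4 genes and 4 peaks. Shares of all coding genes under these alternatives are not given here. The other surface genes at 10 kb numbered 6 and 10 for IRF4 at 72 h and 48 h, and 3 and 1 for IRF8 at 72 h and 48 h. They numbered 1 for IRF8 at 48 h with at least 30 normalised tags, and 10 for the GC list by the nearest start site. Over whole intervals an EICE lay in 2 intervals, the ISRE core in 2, an AP-1 site in 1 and a PU.1-type site in 1. With the last fixed base free, the EICE lay in 4 intervals and, in a choice made after the data were seen, the ISRE core in 1. The latter was the IRF8 72 h peak of Cd38, which also held a relaxed EICE. A relaxed ISRE core lay within 100 bp of the centre in 17.1% of all placed IRF8 72 h peaks. The Cd38 ratio did not pass under any alternative, and its log2 value was 0.12 with the median ratio of shared places set to 1, where 10 of 536 places passed, 6 higher and 4 lower at 72 h. With at least 30 normalised tags in both, 20 of 323 places passed. No paired analysis was possible because each group held 1 library. With 8 to 14 tags per LPS peak, differences of the size seen at Cd38 were not detectable at this depth.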

Other observations

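Of the 39 other B cell surface genes, 8 had an interval in at least 3 of the 5 lists: Siglecg, Cd83, Icosl, Tnfrsf13b, Cxcr5, Cd69, Cd48 and S1pr1. The share of all coding genes with an interval in at least 3 lists is not given here, so 8 of 39 has no background beside it. Siglecg encodes an inhibitory receptor related to CD22. A place 15.6 kb upstream of it was listed in 4 lists. It had 53.1 and 100.1 normalised IRF4 tags at 72 h and 48 h, 32.6 normalised IRF8 tags at 72 h and a GC interval. It held an EICE and a PU.1-type site within 100 bp of each centre. Icosl encodes the ligand of the T cell co-stimulator ICOS. A place centred 17.91 to 17.97 kb downstream of its start was in all 5 lists. It had 55.8 and 38.3 normalised IRF4 tags at 72 h and 48 h, and 39.1 and 25.1 normalised IRF8 tags in that order. Each of these intervals held an EICE and a PU.1-type site somewhere along its width. Cd83 encodes an activation marker of B cells. A place 23.8 kb upstream of it was in 4 lists and held AICE2 and AP-1 over each whole interval. It had 34.5 and 50 normalised IRF4 tags at 72 h and 48 h, 43.4 normalised IRF8 tags at 48 h and a GC interval. IRF8 at 72 h had its Cd83 peak elsewhere, 32.5 kb upstream, where IRF4 at 48 h had a second one. At the Cxcr5 promoter IRF8 at 72 h had a peak 23 bp from the gene start with an AP-1 site and 35.9 normalised tags. That Cxcr5 peak overlapped no interval of another list. No tests were made on these places, and the genes were named for having an interval in at least 3 lists, at the same place or not.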
